A study of Homo sapiens with 22 samples.

Results

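LAN-1, SK-N-BE2(C) and SK-N-F1 are established human neuroblastoma cell lines, and their gene expression was compared between hypoxia and normoxia. Their arrays were chosen by the cell line name in the labels, which gave 6 of the 22 arrays of the series, or 3 of its 11 pairs. Hypoxic cells were kept at 1% O2 and normoxic cells at 20% O2, for 18 hours each, and no other agent was named for either group. Each cell line had 1 array per condition, so the 3 lines served as the replicates, and no p value measures the spread between cultures of a line. The variance behind a limma p value joins a gene's spread between lines (2 residual degrees of freedom) with a prior. That prior is drawn from other genes of similar brightness and carries more weight (6.69 degrees of freedom). The other 8 lines were SK-N-SH, SHEP-2, IMR-32, GI-ME-N, GI-LI-N, ACN and the SHEP21N line with and without MYCN overexpression, kept at the same oxygen levels. SHEP21N with and without MYCN overexpression counted as separate lines, so the 8 are not all independent.

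The arrays carried the gene expression of neuroblastic cells. Of 9 neuroblastic (adrenergic) marker genes on the array, 8 had a deposited signal of at least 200 on all 6 arrays, and the exception was TH, which had signals of 118.9 and 149.02 in SK-N-F1. The summed signal of these markers was 59042 to 117549 on the normoxic and 66100 to 130593 on the hypoxic arrays. Of 17 markers of substrate-adherent (mesenchymal) neuroblastoma cells, 6 also reached 200 on all 6 arrays, with a summed signal of 28205 to 43346 in normoxia and 35336 to 50136 in hypoxia, while CAV1 and FOSL1 stayed under 100 throughout. Their part in the hypoxia changes was not tested. Of the markers of Schwann cells, of immune cells and of endothelium, 4 of 5 each were under 100 on all 6 arrays. MYCN, the transcription factor gene amplified in aggressive neuroblastoma, had signals of 37386 in hypoxia and 33350 in normoxia in LAN-1, of 67627 and 55612 in SK-N-BE2(C), and of 6119 and 5788 in SK-N-F1. Its change was 0.06 on the log2 scale with an adjusted p of 0.639. These are values of the brightest MYCN probeset. Another was at 27.9 in hypoxia and 40.0 in normoxia in SK-N-F1, against 2309 and 1790 in LAN-1 and 5346 and 5547 in SK-N-BE2(C). A further one was at 16.1 and 70.4 in SK-N-F1, against 1207 and 937.2 in LAN-1 and 2082 and 2139 in SK-N-BE2(C). The ratio of the 3' to the 5' control probeset was 0.957 to 1.40 for GAPDH and 1.49 to 2.54 for ACTB on these 6 arrays, against up to 67.3 and 94.0 on the other 16. In each pair the hypoxic array had the higher ACTB ratio, at 2.54 against 1.78 in SK-N-BE2(C), 2.19 against 1.63 in SK-N-F1 and 1.55 against 1.49 in LAN-1. The GAPDH ratio went the other way in each pair, at 1.11 against 1.14, 1.13 against 1.40 and 0.957 against 1.08 in the same order. The part of either ratio in the changes was not tested. Arrays of the same line correlated at r = 0.965 to 0.972 across genes, and arrays of different lines at 0.753 to 0.849.

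As background, cells sense low oxygen through prolyl hydroxylases that mark the hypoxia-inducible factors HIF-1α and HIF-2α for destruction while oxygen is present. When oxygen falls these factors persist, pair with ARNT and bind DNA at a short core sequence. Their known targets carry the cell toward glycolysis, spare mitochondrial oxygen use, promote vessel growth and restrain growth signalling. Neuroblastoma cells of the neuroblastic type resemble immature sympathetic neurons and make the enzymes of noradrenaline synthesis.

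At 2-fold, more genes were called as risen than as fallen over the 3 lines. A gene was called when its change, taken as log2 of the signal divided by the array median, passed an adjusted p of 0.05 in limma, blocked on cell line, and was at least 2-fold on the mean of the 3 lines. Of 10896 genes tested, 50 rose (0.459%) and 5 fell (0.0459%). At an unadjusted p of 0.05, 92 genes were at least 2-fold higher and 52 at least 2-fold lower. The calls rest on the variance prior that follows signal intensity: limma without that trend called 0 genes in either direction, with 74 higher and 35 lower by 2-fold at an unadjusted p of 0.05. Leaving out LAN-1 gave 24 rises and 10 falls (but 80 higher and 90 lower by 2-fold at an unadjusted p of 0.05), leaving out SK-N-BE2(C) 75 and 12, and leaving out SK-N-F1 56 and 19. Averaging the probesets of each gene, in place of taking the brightest, gave 3 rises and 1 fall. As a description that uses no test, 24 genes (0.22%) were at least 2-fold higher in each of the 3 lines, and these were all among the 50. Only 4 genes (0.0367%) were at least 2-fold lower in each, namely TMEM79, CBR3, XRCC3 and SAMSN1.

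Among the markers of hypoxia, DDIT4 and NDRG1 rose over the 3 lines, and EGLN3 did not pass. DDIT4, which restrains the growth kinase mTOR, had signals of 6479 in hypoxia and 496.2 in normoxia in LAN-1, of 4587 and 1132 in SK-N-BE2(C), and of 6662 and 1177 in SK-N-F1. The hypoxic and normoxic arrays did not overlap. Its change was 2.63 ± 0.27 (limma's moderated SE, n = 3 pairs) on the log2 scale, with an adjusted p of 0.0056. That SE borrows from genes of similar brightness, and the SD of the 3 changes of DDIT4 was 0.89. NDRG1, a stress-responsive gene linked to differentiation, had 1375 against 70.9 in LAN-1, 745.9 against 234.3 in SK-N-BE2(C) and 5062 against 461.3 in SK-N-F1. The change of NDRG1 was 3.02 ± 0.40 (moderated SE) with an adjusted p of 0.0148, and the SD of its 3 changes was 1.35. EGLN3, the oxygen-sensing prolyl hydroxylase that is itself a hypoxia target, had 532.8 against 32.4 in LAN-1, 735.7 against 377.5 in SK-N-BE2(C) and 1382 against 869.3 in SK-N-F1. The normoxic signal of EGLN3 in SK-N-F1 lay above the hypoxic signals of both other lines. The log2 change of EGLN3 was 3.95 in LAN-1, 0.84 in SK-N-BE2(C) and 0.54 in SK-N-F1, and its mean of 1.78 had an adjusted p of 0.0911. A second EGLN3 probeset of nearly the same brightness was at 3.63, 1.93 and 0.84. On its first probeset EGLN3 passed in limma without SK-N-F1, at 2.40 with an adjusted p of 0.0106, and that line was left out with its value known. It did not pass without LAN-1 (0.69, adjusted p of 0.0875) or without SK-N-BE2(C) (2.25, adjusted p of 0.0960). In the other 8 lines EGLN3 was higher in 8 of 8, with changes of 0.26 to 2.99.

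**Figure D1:**
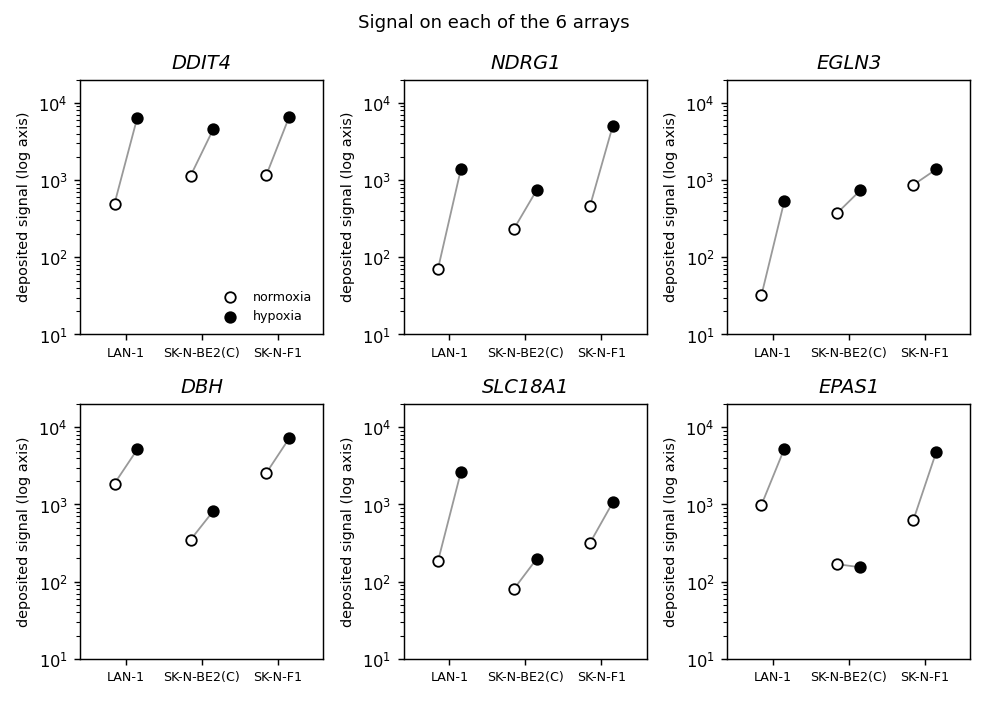
Deposited signals (log axis) of DDIT4, NDRG1, EGLN3, DBH, SLC18A1 and EPAS1 on the 6 arrays, with open circles for normoxia and filled circles for hypoxia, joined within each cell line. DDIT4, NDRG1, DBH and SLC18A1 were higher in hypoxia in the 3 lines, EGLN3 moved most in LAN-1 (532.8 against 32.4), and EPAS1 was at 153.6 against 168.3 in SK-N-BE2(C).

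The largest rise belonged to COXFA4L2 (also known as NDUFA4L2), a mitochondrial protein known to lower complex I activity in hypoxia. Its signal was 2244 in hypoxia and 21.0 in normoxia in LAN-1, 446.5 and 11.3 in SK-N-BE2(C), and 243.7 and 28.5 in SK-N-F1. The normoxic signals were among the dim ones of these arrays, and setting signals below 50 to 50 brought the change from 4.93 to 3.53 on the log2 scale. PFKFB4, which makes the activator of phosphofructokinase, rose by 3.12 ± 0.32 (moderated SE, n = 3 pairs), with 1907 against 100.8, 167.4 against 30.7, and 3025 against 375.4 in LAN-1, SK-N-BE2(C) and SK-N-F1. FAM162A, a mitochondrial protein linked to hypoxic cell death, had the smallest adjusted p, 0.000414, and its hypoxic signals of 31508, 12144 and 18675 stood against 4353, 2631 and 2286 in normoxia in the same order of lines. P4HA1, the catalytic subunit of collagen prolyl 4-hydroxylase, rose about equally in the 3 lines, by 2.18, 1.98 and 1.73 on the log2 scale, with an adjusted p of 0.000689. BNIP3, a receptor for mitophagy, changed by 2.50, 1.53 and 2.23 with an adjusted p of 0.002, and VEGFA, the main angiogenic growth factor, by 2.54, 1.41 and 2.25 with an adjusted p of 0.00339.

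The sequences upstream of DDIT4, FAM162A, P4HA1 and BNIP3 are shown because these genes rose in the 3 lines and their windows hold the core motif ACGTG known from hypoxia response elements. They were chosen with the motif in view. Each is the 250 bases before the gene's start, from RefSeq (GRCh38.p14), 5′ to 3′ on the gene's strand, with ACGTG or its reverse complement CACGT in capitals. DDIT4 lies at chr10:72273674-72273923 (plus strand), FAM162A at chr3:122383932-122384181 (plus strand), P4HA1 at chr10:73096867-73097116 (minus strand) and BNIP3 at chr10:131981924-131982173 (minus strand).
DDIT4: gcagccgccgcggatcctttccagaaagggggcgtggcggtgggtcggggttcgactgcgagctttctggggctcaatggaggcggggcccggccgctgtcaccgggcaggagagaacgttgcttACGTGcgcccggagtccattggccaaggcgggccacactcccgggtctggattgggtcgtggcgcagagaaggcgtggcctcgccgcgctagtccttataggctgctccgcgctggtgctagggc
FAM162A: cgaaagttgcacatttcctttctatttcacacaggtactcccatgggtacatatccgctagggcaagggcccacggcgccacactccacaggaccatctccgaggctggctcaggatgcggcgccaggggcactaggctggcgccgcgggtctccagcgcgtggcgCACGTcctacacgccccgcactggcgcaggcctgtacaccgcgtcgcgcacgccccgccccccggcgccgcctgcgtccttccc
P4HA1: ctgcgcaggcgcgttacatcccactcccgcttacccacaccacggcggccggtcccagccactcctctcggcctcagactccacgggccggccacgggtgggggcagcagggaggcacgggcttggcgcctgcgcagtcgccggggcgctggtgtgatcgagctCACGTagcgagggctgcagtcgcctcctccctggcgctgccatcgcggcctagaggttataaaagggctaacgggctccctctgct
BNIP3: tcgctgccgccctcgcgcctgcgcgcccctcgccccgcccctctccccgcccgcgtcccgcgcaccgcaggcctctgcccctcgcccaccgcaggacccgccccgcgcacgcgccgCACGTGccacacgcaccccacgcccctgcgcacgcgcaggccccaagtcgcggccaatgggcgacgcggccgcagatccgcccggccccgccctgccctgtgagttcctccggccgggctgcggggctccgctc
The capitals begin 125 bases before the start in DDIT4, 84 in FAM162A, 86 in P4HA1 and 134 in BNIP3, where both strands match in the palindrome CACGTG. On either strand, ACGTG stood in the windows of 20 of the 37 risen genes that had one (54.1%), against 2671 of 8977 tested genes (29.8%). The palindrome CACGTG, which always also counts as ACGTG, stood in 10 of 37 (27.0%) and 1046 of 8977 (11.7%). Counting ACGTG or GCGTG gave 29 of 37 (78.4%) and 5973 of 8977 (66.5%). Among the genes at least 2-fold higher in each line, 7 of 16 windows held ACGTG (43.8%), 11 held ACGTG or GCGTG (68.8%) and 3 held CACGTG (18.8%). The windows of PFKFB4, EGLN3, EPAS1 and DBH held no ACGTG, which says only that these letters are not in the 250 bases read. A match is a description and not a binding site.

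**Figure D2:**
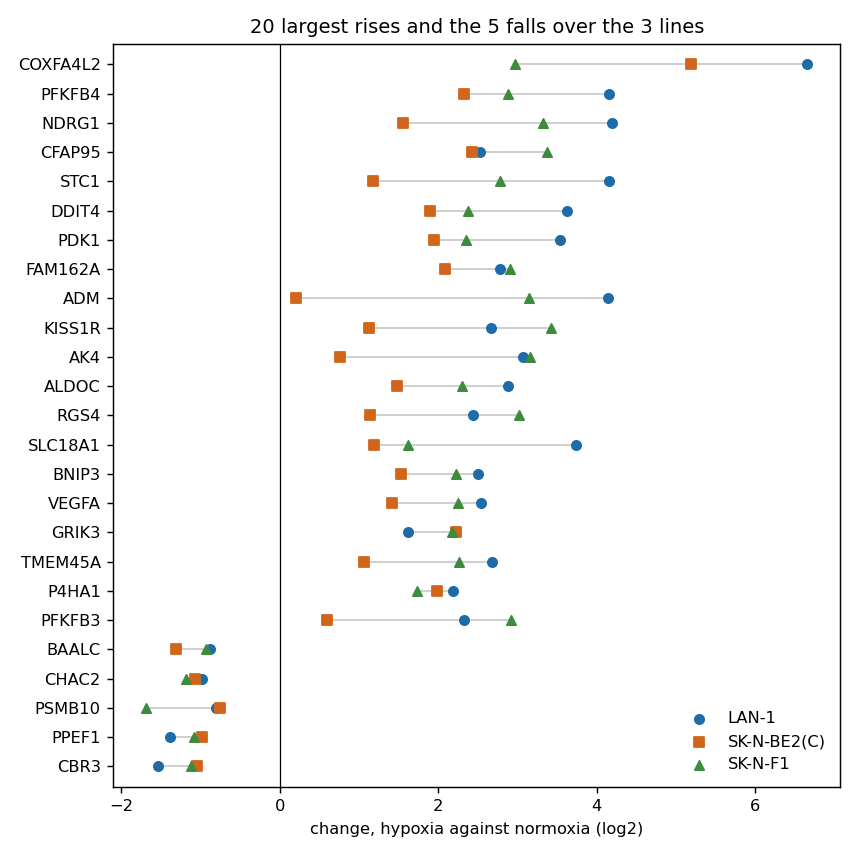
Change between hypoxia and normoxia (log2 of signal over array median) of the 20 genes with the largest mean rise and of the 5 genes that fell, with 1 symbol per cell line. COXFA4L2 leads with 6.66 in LAN-1, 5.18 in SK-N-BE2(C) and 2.96 in SK-N-F1, and ADM shows the widest gap between LAN-1 (4.14) and SK-N-BE2(C) (0.21) among the 20.

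Most glycolysis genes that passed were higher by less than 2-fold. Of 22 tested genes of glucose transport and glycolysis, 14 passed higher without a fold limit (against 0.909% of all genes) and 0 passed lower. At least 2-fold, 6 rose (4 with the values as deposited, 5 with quantile normalization), against 0.459% of all genes. The median change of the 22 was 0.75 on the log2 scale, against -0.13 for all genes tested. The 6 were the glucose transporter SLC2A1, hexokinase HK2, the phosphofructokinase PFKP, both phosphofructokinase regulators PFKFB3 and PFKFB4, and the aldolase ALDOC. ALDOC, for example, had 3053 against 391.9 in LAN-1, 1646 against 544.1 in SK-N-BE2(C) and 2331 against 434.4 in SK-N-F1. Among the bright enzymes, ALDOA changed by 0.66, 0.73 and 0.84 with an adjusted p of 0.0056, and PGK1, with 31594 against 14912 in LAN-1, by 1.00, 0.61 and 0.95 with an adjusted p of 0.00683. LDHA, the lactate dehydrogenase subunit, did not pass at 0.23, -0.27 and 0.89, and GAPDH was at 0.14 with an adjusted p of 0.281. HK2 was read from its brightest probeset, and its other 2 bright probesets were lower, at -0.76 and -1.48. Averaged over its probesets the change was -0.25.

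A few members of the glycogen and mitochondrial lists changed. Over all genes tested 0.459% were called as risen and 4.36% passed lower without a fold limit. GBE1, the glycogen branching enzyme, rose by 1.70, 0.93 and 2.01 in LAN-1, SK-N-BE2(C) and SK-N-F1, PPP1R3C, which targets a phosphatase to glycogen, by 2.05, 0.92 and 2.66, and PGM1, which interconverts glucose phosphates, by 1.75, 0.62 and 1.01, while 7 of the 11 tested glycogen genes did not pass. GYG1, the primer of glycogen, passed lower at -0.66, though no gene of the list did as deposited or with quantile normalization. PDK1, a pyruvate dehydrogenase kinase, had 3881 against 315.9 in LAN-1, 3011 against 719.4 in SK-N-BE2(C) and 8147 against 1456 in SK-N-F1. In its list of 17 genes of pyruvate entry and mitochondrial adaptation, PDK1, FAM162A and COXFA4L2 rose, MPC2 and HIGD1A passed lower, neither of them with the other scalings, and 12 did not pass. The mitophagy receptors BNIP3 and BNIP3L rose, and the other 11 of 13 mitophagy and autophagy genes did not pass. BNIP3L had 11323 against 1994, 4478 against 1886 and 15101 against 4743.

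Secreted factors, collagen enzymes and repressors rose in part. Over all genes tested 0.459% were called as risen and 0.909% passed higher without a fold limit. VEGFA, the peptide hormone ADM and the glycoprotein hormone STC1 rose among 12 tested angiogenic and secreted peptides (median 0.55), and 9 did not pass. ADM did not pass as deposited (adjusted p of 0.0985) or with quantile normalization (0.0948). STC1 had 7635 against 405.9 in LAN-1 but 741.4 against 302.2 in SK-N-BE2(C). Of 11 collagen-modifying enzymes (median 0.69), P4HA1, P4HA2, the lysyl hydroxylase PLOD1 and the lysyl oxidase LOXL2 rose. PLOD2, another lysyl hydroxylase, was at 1.71 in LAN-1, 0.02 in SK-N-BE2(C) and 5.29 in SK-N-F1, where its normoxic signal was 4.71, and its adjusted p was 0.117. BHLHE40, a transcriptional repressor, TXNIP, an inhibitor of thioredoxin, and ARRDC4, its relative, rose among 18 hypoxia-responsive repressors and growth-restraining genes (median 0.47), where 0 rose with the values as deposited and 1 with quantile normalization. KDM3A, an oxygen-dependent histone demethylase, rose among 18 Jumonji genes, by 2.12 in LAN-1 and 1.25 in SK-N-BE2(C), and KDM4B, KDM5B and KDM7A passed by less than 2-fold. DEPTOR, an inhibitor bound to mTOR, rose beside DDIT4 by 2.27, 1.05 and 0.56, and 1 of these 2 rose with the values as deposited. EGLN1, the main HIF prolyl hydroxylase, was the only called gene of 11 in oxygen sensing, at 1.24, 0.33 and 1.70. It missed the threshold with the values as deposited (adjusted p of 0.058) and with quantile normalization (0.0644). HIF1A, which encodes HIF-1α, had an adjusted p of 0.32 at -0.15.

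EPAS1, which encodes HIF-2α, differed in value between the lines. Its signal was 5261 in hypoxia and 990.1 in normoxia in LAN-1 and 4803 and 633.7 in SK-N-F1, but 153.6 and 168.3 in SK-N-BE2(C). The corresponding changes were 2.33, 2.79 and -0.25 on the log2 scale, and the mean over the 3 lines had an adjusted p of 0.0766. Without SK-N-BE2(C) the mean was 2.56 with an adjusted p of 0.000113, and the line was left out with its value known. A dimmer EPAS1 probeset (geometric mean signal 62.3) was at 1.87 in LAN-1, 2.90 in SK-N-BE2(C) and 0.54 in SK-N-F1. Another (8.59) was at 1.78, 0.47 and 0.0005 in that order. Among the other 8 lines EPAS1 was at 3.33 in GI-LI-N and at or below 0.09 in the other 7. COXFA4L2 was at 5.64 in GI-LI-N and at -2.12 to 1.37 in those 7.

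Among the genes of catecholamine synthesis and storage, DBH and SLC18A1 rose. DBH, which converts dopamine to noradrenaline, had 5179 against 1869 in LAN-1, 823.6 against 348.1 in SK-N-BE2(C) and 7234 against 2579 in SK-N-F1. The fold was nearly equal, 2.61, 2.18 and 2.56, and the adjusted p was 0.00286. SLC18A1, a vesicular monoamine transporter, had 2616 against 184.7, 198.3 against 80.5 and 1064 against 317.0, with an adjusted p of 0.0353 that was 0.0597 without LAN-1, 0.059 with the values as deposited and 0.057 with quantile normalization. They were the 2 called of 13 genes (0.459% of all genes), whose median was 0.08. GCH1, which makes the cofactor of tyrosine hydroxylase, passed lower (as did 4.36% of all genes) at -0.71, -0.44 and -0.99, but not with the values as deposited (adjusted p of 0.0588) or quantile normalization (0.0763), and 10 did not pass. TH, tyrosine hydroxylase, was 2437 against 509.8 in LAN-1, 7202 against 6808 in SK-N-BE2(C) and 118.9 against 149.02 in SK-N-F1, with its main difference in LAN-1. DDC, the next enzyme, was at 0.66, 0.01 and 0.94. In the other 8 lines DBH had a mean of -0.29 ± 1.36 (SD). It was higher in 3 of them, SK-N-SH (1.55), IMR-32 (1.06) and GI-LI-N (0.43), which may not be independent lines. SLC18A1 had a mean of -0.44 ± 0.87 in the 8 lines and was higher in 3. The difference between the 3 and the 8 lines did not pass for DBH (adjusted p of 0.983) and was not tested for SLC18A1, which did not reach the signal limit over the 22 arrays. None of 12 adrenergic transcription factors passed, among them GATA3 at 0.17, 0.20 and 0.20, and ISL1 at -0.19, -0.31 and -0.24.

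Genes less often named with hypoxia were among the 20 largest rises. RGS4, a brake on G protein signalling, had 35009 against 6087 in LAN-1, 21673 against 9042 in SK-N-BE2(C) and 32859 against 3719 in SK-N-F1, with 3 of 3 bright probesets in the same direction. Its change of 2.20 ± 0.28 (moderated SE) stood against a mean of 0.86 ± 1.69 (SD) in the other 8 lines, of which 3 were higher. KISS1R, the kisspeptin receptor, rose by 2.66, 1.12 and 3.42, and GRIK3, a kainate receptor subunit, by 1.62, 2.22 and 2.18. CFAP95 rose by 2.52, 2.42 and 3.37 from normoxic signals of 39.4, 16.9 and 107.5. KISS1R and GRIK3 were dim as well in SK-N-BE2(C), with normoxic signals of 36.1 and 33.2. KISS1R missed the threshold without LAN-1 (adjusted p of 0.124) and without SK-N-F1 (0.0734), with the values as deposited (0.0634) and with quantile normalization (0.067), and GRIK3 without LAN-1 (0.0756).

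The 5 genes that fell did so by little more than 2-fold. CHAC2, which degrades glutathione, had 890.7 against 1654 in LAN-1, 981.3 against 1896 in SK-N-BE2(C) and 770.5 against 1601 in SK-N-F1, a change of -1.08 ± 0.12 (moderated SE, n = 3 pairs). BAALC had 523.3 against 913.4, 114.4 against 262.3 and 1854 against 3223. PPEF1, a protein phosphatase, had 169.3 against 419.2, 434.3 against 791.8 and 253.3 against 490.7. CBR3, a carbonyl reductase, and PSMB10, a subunit of the immunoproteasome, changed by -1.24 and -1.09, and each lost its call when any 1 of the 3 lines was left out. With the signals as deposited, 0 genes passed as fallen in limma (1 with quantile normalization), with 28 at least 2-fold lower at an unadjusted p of 0.05.

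Below 2-fold, more genes passed lower than higher, and this depended on the scaling. Without a fold limit 99 genes passed higher (0.909%) and 475 lower (4.36%), so 17.2% of the passing genes were higher. With the values as deposited 67 passed higher and 29 lower (69.8% higher), and with quantile normalization 74 and 30 (71.2% higher). The median change of all genes was -0.13 after division by the array median, -0.02 as deposited and -0.03 after quantile normalization, and the groups described next are given relative to that median. Of 35 tested DNA replication genes 8 passed lower, 0 passed higher, and 32 lay below the median of all genes, the list's median lying 0.22 under it. RRM2, the regulated subunit of ribonucleotide reductase, had 15453 against 20189 in LAN-1, 6669 against 12047 in SK-N-BE2(C) and 5235 against 9252 in SK-N-F1. CCNE2, the S phase cyclin, POLE2, a DNA polymerase subunit, and RFC5, of the clamp loader, passed at -0.78, -0.68 and -0.71. The list's median was -0.11 in LAN-1, -0.52 in SK-N-BE2(C) and -0.43 in SK-N-F1. Of 31 subunits of respiratory complex I, 8 passed lower, 0 higher, and 30 lay below the median of all genes, with a list median 0.18 under it. NDUFS6 and NDUFB2 passed at -0.60 and -0.56. With the values as deposited 1 of the 35 replication genes and 0 of the 31 complex I genes passed (limma; 32 and 30 still lay below the median of all genes). With quantile normalization 1 and 2 passed. In mitosis 1 of 30 genes passed lower, in DNA repair 1 of 14 and in nucleolar ribosome biogenesis 2 of 23, and 0 of each with either other scaling.

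**Figure D3:**
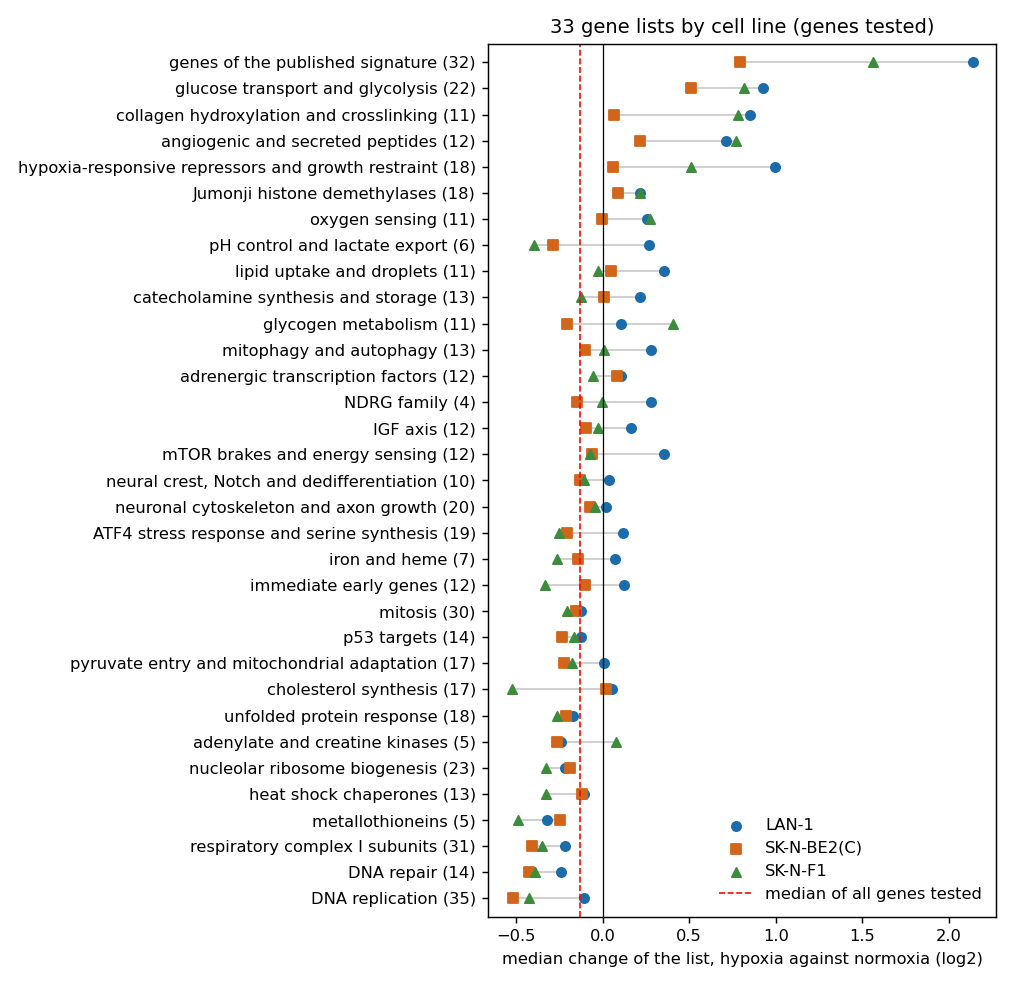
Median change (log2) of the tested members of each of 33 gene lists in LAN-1, SK-N-BE2(C) and SK-N-F1, with the number of genes tested in parentheses and the median of all genes (-0.13) as a dashed line. The published signature, glycolysis and the collagen-modifying list stand highest, SK-N-BE2(C) is lowest of the 3 lines in the 5 topmost lists, and the lowest points are cholesterol synthesis in SK-N-F1 (-0.53) and DNA replication in SK-N-BE2(C) (-0.52).

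The changes of the risen genes were mostly smallest in SK-N-BE2(C) and largest in LAN-1. Among the 50 risen genes, whose choice used these arrays, the median change was 2.30 in LAN-1, 1.97 in SK-N-F1 and 1.03 in SK-N-BE2(C), and SK-N-BE2(C) was lowest in 43. For all genes tested the medians were -0.09, -0.17 and -0.14 in that order. The share of all genes whose change was lowest in SK-N-BE2(C) was not counted. A second list did not use these 6 arrays: 23 of 11286 genes (0.204%) rose at the same limits in the other 8 lines. Their median change was 2.50 in LAN-1, 2.17 in SK-N-F1 and 0.92 in SK-N-BE2(C). LAN-1 exceeded SK-N-BE2(C) in 23 of these 23 genes, SK-N-BE2(C) was lowest in 22, and at least 2-fold rises numbered 22, 18 and 10 in LAN-1, SK-N-F1 and SK-N-BE2(C). The same 23 genes had medians of 0.80 to 1.96 in the 8 lines that chose them. In hypoxia, SK-N-BE2(C) had the lowest scaled level of the 3 lines in 21 of the 23 genes (91.3%), against 56.8% of all genes tested, and in normoxia the highest in 1 (4.35%), against 14.0%. ADM was that exception, at 4095 in normoxia and 5134 in hypoxia in SK-N-BE2(C) but 41.9 and 782.0 in LAN-1 and 196.3 and 1896 in SK-N-F1. With 1 array per line and condition, the difference between lines has no replicate check.

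**Figure D4:**
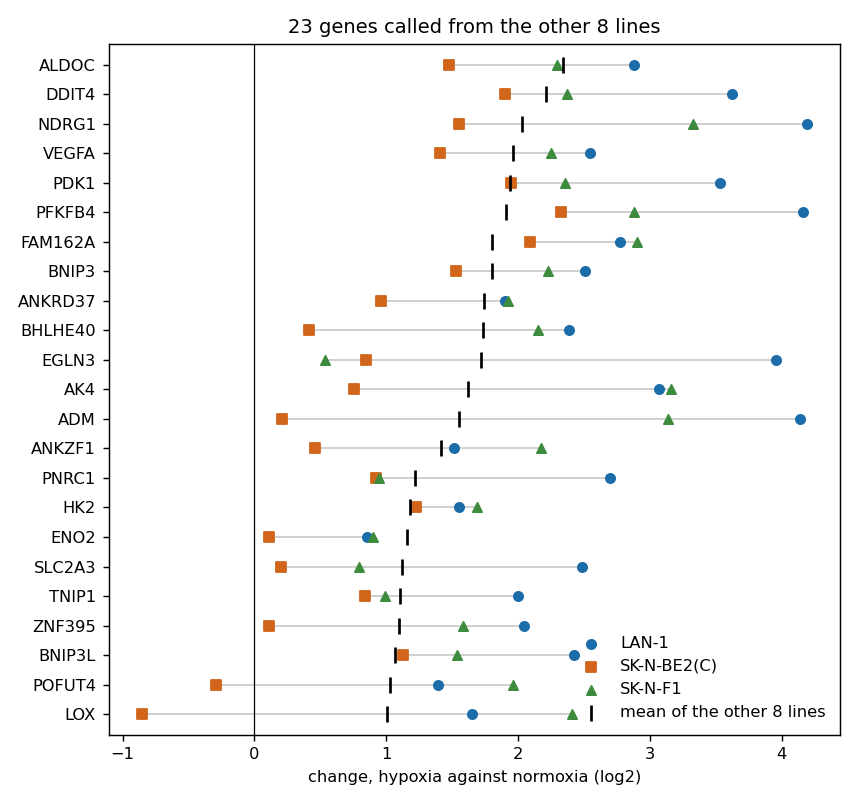
Change (log2) in LAN-1, SK-N-BE2(C) and SK-N-F1 of the 23 genes that rose in the other 8 lines, with the mean of those 8 lines as a bar. SK-N-BE2(C) is lowest of the 3 in 22 of 23 genes, EGLN3 being the exception, and it lies below 0 for POFUT4 and LOX.

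The 50 and the 23 genes shared 18, which is 36% of the first list and 78.3% of the second. The published signature was selected by the study on all 22 arrays, these 6 included, so its rise is not independent evidence. Of its 32 genes, 20 rose here (0.459% of all genes), 23 passed higher without a fold limit (0.909%) and 0 passed lower, with a median of 1.37. It supplied 40% of the 50 risen genes. IGF1R, a growth factor receptor of the signature, was at 0.27, -0.10 and 0.10, and ANGPTL4, a secreted lipase inhibitor, at 2.17, -1.30 and 3.17. Of the 50 risen genes, 47 had a mean above 0 in the other 8 lines and 27 were higher in all 8, and their median there ran from 0.39 to 1.39 by line. The exceptions with a mean below 0 were COXFA4L2, SLC18A1 and DBH, and each of these was higher in 3 of the 8 lines.

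The change differed from that of the other 8 lines in no single gene past the threshold. In limma with all arrays, 0 of 11173 genes (0%) passed, and 357 had an unadjusted p under 0.05. EPB41L2, a membrane skeleton protein, came nearest at 1.65, 4.28 and 3.04 against -0.47 to 0.56 in the other lines, with an adjusted p of 0.0582. Its 6 signals were 77.7 against 23.3, 84.8 against 4.01 and 68.5 against 7.59, so the brightest was under 100. Another EPB41L2 probeset was brighter on these 6 arrays (geometric mean signal 80.4 against 26.2). It was at 0.10 in LAN-1, 0.15 in SK-N-BE2(C) and 0.87 in SK-N-F1. TENT5B was second in order of p, at -3.13, -2.20 and -1.90 against a mean of 0.07, from signals of 8.17 against 67.6 in LAN-1, 34.3 against 144.6 in SK-N-BE2(C) and 32.0 against 109.4 in SK-N-F1. P4HA2 was at a mean of 1.91 in the 3 and 0.98 ± 0.23 (SD) in the 8 lines, higher in 8 of 8. CTSC, a lysosomal protease, was at -0.66, -0.74 and -2.56 against a mean of 0.08, though its signals in SK-N-F1 were 5.69 against 30.6. Other CTSC probesets, brighter on these 6 arrays, were at -0.47 and 0.52 in SK-N-F1. TENT5B, P4HA2 and CTSC had an adjusted p of 0.983. Without LAN-1 EPB41L2 passed (0.0017), without SK-N-F1 RBM24 alone passed (0.00744), and without SK-N-BE2(C) 7 genes passed, EPB41L2, GPRC5B, GPR137B, SMARCA2, USP18, CA12 and F2R.

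Across all 10896 genes the changes of the 3 lines were weakly alike. As a description across genes, which are not independent and share the array scaling, Pearson's r was 0.36 between LAN-1 and SK-N-F1, 0.22 between LAN-1 and SK-N-BE2(C) and 0.22 between SK-N-BE2(C) and SK-N-F1. At least 2-fold higher were 287 genes (2.63%) in LAN-1, 181 (1.66%) in SK-N-BE2(C) and 208 (1.91%) in SK-N-F1. At least 2-fold lower were 134 (1.23%), 354 (3.25%) and 206 (1.89%). With a mean signal of at least 200 these counts became 162, 63 and 110 higher and 58, 170 and 113 lower.

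Few genes moved in 1 line alone, by a change of at least 1.5 on the log2 scale in that line, at most 0.5 either way in both others, and a signal of at least 200 on its brighter array. These are values of 1 pair of arrays with no replicate and no test. LAN-1 had 15 such genes higher (0.156%) and 0 lower (0%). ANKS1A, an adaptor of receptor signalling, led with 6712 against 746.3 in LAN-1, while SK-N-BE2(C) had 1078 against 939.7 and SK-N-F1 1038 against 1041. DSE, a dermatan sulfate epimerase, had 4426 against 529.1 in LAN-1, but its mean over all probesets was -0.17. COX4I2, the hypoxia-responsive isoform of a cytochrome oxidase subunit, had 511.7 against 76.2, and ADAM33, a metalloprotease, 355.2 against 43.3. COX4I2 had a mean of 1.12 in the other 8 lines and was higher in 6 of them. TH, the chemokine receptor CXCR4 and the tetraspanin CD9 were also among the 15, CD9 at 16090 against 4476.

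SK-N-BE2(C) had 10 genes higher (0.0979%) and 27 lower (0.264%) alone, at low signals. The brighter of the paired signals had a median of 248.8 for the 10 and 282.2 for the 27. MYL4, a myosin light chain, had 5.00 in hypoxia against 222.6, EHHADH, a peroxisomal enzyme, 12.6 against 203.8, and PIDD1, a death domain protein, was at 248.1 in normoxia. Setting signals below 50 to 50 brought these from -5.60, -4.14 and -3.91 to -2.27, -2.15 and -2.43, and averaging its probesets brought MYL4 to -1.27. MTUS2 (250.4 against 30.5), MED18, OXER1 and LOC105378948 led the genes higher. MTUS2 has another probeset, brighter on these arrays, at 2.81 in LAN-1, -0.25 in SK-N-BE2(C) and -0.42 in SK-N-F1. SK-N-F1 had 7 genes higher (0.0695%) and 7 lower (0.0695%) alone. CARMN, ADGRB3-DT, ADGRA2 and PLPP7 led those higher, with 203.4 against 20.1 for CARMN and 703.9 against 176.5 for ADGRB3-DT. Among those lower, CTXN1 had 140.8 against 607.6, ADAM15 89.6 against 312.1 (another bright probeset was at -0.18) and GDF15, a stress cytokine, 95.6 against 271.5. GLRX, glutaredoxin, was the brightest of these, at 1933 against 5957, with 7018 against 6707 in LAN-1 and 1637 against 1602 in SK-N-BE2(C).

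**Figure D5:**
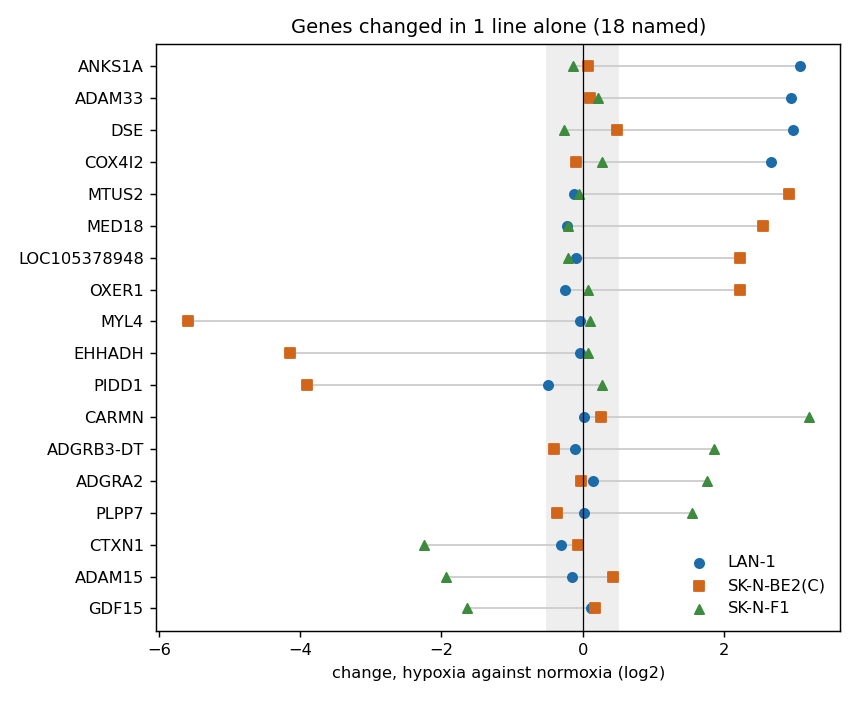
Change (log2) of the 18 genes named by rule as changed in 1 line alone, with the range of -0.5 to 0.5 shaded. The LAN-1 genes ANKS1A, ADAM33, DSE and COX4I2 lie at 2.66 to 3.08 in LAN-1, and MYL4 lies at -5.60 in SK-N-BE2(C).

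At least 2-fold in opposite directions, each at a signal of at least 200, were 7 of 9910 genes (0.0706%). SPATA32 was at -1.10 in LAN-1, 2.80 in SK-N-BE2(C) and 3.73 in SK-N-F1. VASP, a regulator of actin filaments, had 554.0 against 348.3, 614.7 against 199.5 and 290.5 against 745.9 in the same order. C8orf58 had 1166 against 194.5 in LAN-1 and 137.1 against 256.4 in SK-N-BE2(C). MIGA2, DNAJA4, ZNF682 and CCDC18-AS1 were the others, and DNAJA4 had 1 of 3 bright probesets in the direction of its change.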

How the data were processed

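The platform was the Affymetrix HG-U133 Plus 2.0 array, used once for each line at each oxygen level. The authors computed each intensity in Microarray Suite 5.0 (MAS5) with a scaling target of 500 and deposited it on a linear scale. Cell line and oxygen level were taken from the labels. Signals were put on the log2 scale relative to the median of their array. Of 54675 probesets, 41091 name a single gene, and 19775 genes were each read from their brightest probeset (mean log2 over the 22 arrays). Genes with a geometric mean signal of at least 100 over the 6 arrays (10896) were tested in limma 3.58.1 (R 4.3.3), blocked on cell line, with an intensity trend in the prior variance and the Benjamini-Hochberg adjustment. The fit was tested on simulated data. The block is the cell line itself: arrays of a line deviated together from the condition means (r = 0.875, 0.860 and 0.911). The difference from the other 8 lines was an interaction term over all 22 arrays, on 11173 genes.

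Named genes were the 3 markers, the 20 largest rises and up to 10 largest falls called, the 2 members of each of 33 lists with the smallest adjusted p, the genes of largest gap or span between lines, up to 10 nearest to a difference from the other 8 lines, and MYCN, HIF1A, EPAS1, VEGFA, GAPDH and ACTB. Other named genes were chosen after their values were seen. The members and lists were chosen with earlier results of these data known. Probesets were named from the platform annotation given by GEO, updated to RefSeq symbols (GRCh38.p14), and figures were drawn with matplotlib 3.10.9 in Python 3.11.15. The number of arrays limits the precision. Alternatives were other scalings, signal filters, probeset rules, fits and limits, and leaving out each line.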

Additional observations from a re-analysis of the deposited data

Results flagged for a closer look

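Genes moved at least 2-fold one way in 1 line and the other way in another, and the difference was not tested, since each line has 1 array per condition. The span between the highest and the lowest of the 3 changes, on the log2 scale, was 4.84 for SPATA32, 3.67 for DNAJA4, 3.52 for C8orf58, 2.996 for VASP, 2.67 for ZNF682 and 2.28 for CCDC18-AS1. Normoxic signals were as low as 16.1 for SPATA32 in SK-N-F1 and 39.7 for DNAJA4 in LAN-1, where the mean of all its probesets was -0.27.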

How the results depend on the processing

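Over the 3 lines 50 genes rose and 5 fell. With the values as deposited these counts were 33 and 0, with quantile normalization 39 and 1, with signals below 50 set to 50 55 and 11, with no filter on the mean signal 42 and 3, with a mean signal of at least 200 49 and 8, with the probesets averaged 3 and 1, with all 22 arrays in the fit 12 and 0, and at an adjusted p of 0.10 67 and 21. Of the 55 calls, 31 were shared with the deposited values and 36 with quantile normalization. Leaving out 1 line gave 24 to 75 rises and 10 to 19 falls, with 26 of the 55 calls shared without LAN-1, 48 without SK-N-BE2(C) and 44 without SK-N-F1. Limma without an intensity trend and a paired t-test each gave 0 and 0, with 74 and 35, and 24 and 9, at least 2-fold at an unadjusted p of 0.05.

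The replicate block is the cell line. With no replicate block limma called 0 rises and 0 falls, 0 higher and 0 lower without a fold limit, and 33 and 3 genes were at least 2-fold at an unadjusted p of 0.05.

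Without a fold limit 99 genes passed higher and 475 lower. The higher count was 3 with the probesets averaged, 0 without an intensity trend, 0 by paired t-test, 12 with all 22 arrays, 218 at an adjusted p of 0.10 and 47 to 114 with 1 line left out. The lower count was 29 as deposited, 30 with quantile normalization, 246 with no signal filter, 793 at a mean signal of at least 200, 1 with the probesets averaged, 0 without an intensity trend, 0 by paired t-test, 1 with all 22 arrays, 1217 at an adjusted p of 0.10 and 80 to 263 with 1 line left out.

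At least 2-fold lower in each line were 4 genes, against 1 as deposited, 0 with quantile normalization, 2 with the floor of 50, 140 with no filter and 0 at a mean signal of at least 200, and the 24 higher became 182 with no filter. In single lines, quantile normalization gave 75 genes lower in LAN-1 and 134 in SK-N-F1. With no filter 2495 genes were higher and 2092 lower in LAN-1, 2442 and 2581 in SK-N-BE2(C), and 2227 and 2264 in SK-N-F1. At a mean signal of at least 200 the counts were 162 and 58, 63 and 170, and 110 and 113. With the probesets averaged 324 were lower in LAN-1, 293 higher and 547 lower in SK-N-BE2(C), and 319 and 371 in SK-N-F1.

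Counts of genes changed in 1 line alone moved as well. As deposited LAN-1 had 1 lower. With quantile normalization SK-N-BE2(C) had 18 higher and SK-N-F1 4 higher and 3 lower. With the floor of 50 LAN-1 had 1 lower, SK-N-BE2(C) 23 higher and SK-N-F1 11 higher. With no filter LAN-1 had 163 higher and 115 lower, SK-N-BE2(C) 170 and 226, and SK-N-F1 124 and 116. At a mean signal of at least 200 SK-N-BE2(C) had 2 higher and 11 lower and SK-N-F1 4 and 4. With the probesets averaged LAN-1 had 9 lower, SK-N-BE2(C) 41 lower and SK-N-F1 18 higher and 17 lower. Genes in opposite directions numbered 7, and 3 with quantile normalization, 2316 with no filter and 69 with the probesets averaged. The difference from the other 8 lines called 0 genes, and 1 to 7 with 1 line left out. The cause of these shifts was not tested.

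With the probesets averaged the sign turned for HK2 (-0.25), SLC4A7 (0.0249), MYCN (-0.0854), DSE in LAN-1 (-0.17) and DNAJA4 in LAN-1 (-0.27). Values near background limit the folds of dim genes.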

Other observations

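Other gene groups moved by less than 2-fold, and these are given after division by the array median. Cholesterol synthesis had a median of -0.53 in SK-N-F1 but 0.05 in LAN-1 and 0.02 in SK-N-BE2(C). Of its 17 tested genes, IDI1 (-0.40) and PMVK (-0.47) passed lower, against 4.36% of all genes, and none passed lower in limma with the values as deposited or quantile normalization. HMGCS1, the synthase at the start of the pathway, was at 0.05, 0.12 and -0.80 in LAN-1, SK-N-BE2(C) and SK-N-F1. EGR1, an immediate early transcription factor, and DUSP6, a phosphatase that limits ERK signalling, passed lower at -0.71 and -0.74, also with both other scalings, and the other 10 of 12 immediate early genes did not pass. Of 18 genes of the unfolded protein response SDF2L1 and MANF passed lower, at -0.68 and -0.50, and neither did with the other scalings. None of 19 genes of the ATF4 stress response passed in limma, none of 5 metallothioneins and none of 20 genes of the neuronal cytoskeleton.

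AK4, a mitochondrial adenylate kinase, rose by 3.07, 0.76 and 3.16, while AK1, its cytosolic relative, was at -0.53 and passed lower, but not with the other scalings (adjusted p of 0.0958 as deposited and 0.113 with quantile normalization). IGFBP5, an IGF-binding protein, was the called gene of 12 in the IGF axis (0.459% of all genes rose). It had 2652 against 619.3 in LAN-1, 2183 against 1060 in SK-N-BE2(C) and 1894 against 867.8 in SK-N-F1. CA12, a membrane carbonic anhydrase, rose by 2.25, 0.50 and 2.997 (7 of the other 8 lines were higher, at a mean of 0.56), but missed the threshold as deposited (adjusted p of 0.0947) and with quantile normalization (0.0995).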
